A study of Homo sapiens with 3 samples.

Results

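Genes of iron storage, iron uptake and haem breakdown were examined in HT-29 cells treated with interferon-γ (IFN-γ). The 10 genes were listed by name: FTH1, FTL, TFRC, SLC11A2, SLC40A1, HFE, HMOX1, ACO1, IREB2 and LCN2. Every probe set annotated with such a symbol and no other was taken. This gave 24 of 19065 probe sets, which named 7 of the 10 genes, among 11963 genes named in all. FTH1, SLC40A1 and IREB2 had no such probe set and were not analysed here. HFE alone accounted for 13 of the 24 probe sets, SLC11A2 for 4, FTL and TFRC for 2 each, and HMOX1, ACO1 and LCN2 for 1 each.

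HT-29 is an established human colon adenocarcinoma line of epithelial origin. Total RNA of 3 cultures, which the series calls biological replicates, was measured after 24 h of plating and a further 24 h with IFN-γ at 200 U/ml, on an array each. Untreated cells were not analysed here, so every value is a level under IFN-γ and says nothing of whether IFN-γ changed it. In bulk RNA, a change in the share of cells that express a gene and a change in RNA per cell cannot be told apart.

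Cells take up iron mostly as transferrin, which the transferrin receptor carries into endosomes, where a reductase and the transporter encoded by SLC11A2 pass the iron to the cytosol. Iron that is not used is stored inside ferritin, a shell of heavy (FTH1) and light (FTL) chains, or leaves the cell through ferroportin (SLC40A1), while haem oxygenase releases iron from haem. The iron regulatory proteins encoded by ACO1 and IREB2 bind hairpins called iron-responsive elements. When iron is scarce they block translation of ferritin mRNA and stabilise transferrin receptor mRNA, so much of the control of this system acts on mRNA translation and decay, and an array measures only the mRNA level.

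The iron-responsive element could be read directly from the start of a storage gene and of a haem synthesis gene. Both are shown because the iron regulatory proteins are known to bind these transcripts near the 5′ end. Each line gives the gene's strand in DNA letters, 5′ to 3′, with the 6-base loop CAGTGN in capitals.
FTL: ctcttgcttcaaCAGTGTttggac
ALAS2: ttcgttcgtcctCAGTGCagggcaacaggt
The FTL stretch lies at chr19:48965335-48965358 on the plus strand and the ALAS2 stretch at chrX:55030940-55030969 on the minus strand (RefSeq, GRCh38.p14). The loop begins 39 bases from the FTL start and 21 bases from the ALAS2 start, and in each sequence the 5 bases before the loop can pair with the 5 bases after it, with G-T pairs allowed. The FTL stretch ends where the available sequence ends, 50 bases after the start. Of 35116 windows of 50 bases after a gene's start, 2277 (6.48%) held CAGTG on the gene's strand, and 18 (0.0513%) held the loop with the 5 pairs. CAGTG stood on either strand of the whole 300-base windows, which add the 250 bases before the start, in 52.6% of them. Of the 68 iron and haem genes with a window, 8 of them from the list of 10, FTL and ALAS2 were the 2 that held the loop with its pairs. The rest of the 18 windows belonged to genes outside these lists, so the pattern alone does not mark an iron gene. The match is a description of letters. For the other iron and haem genes with a window, SLC40A1 among them, it says only that the pattern is not in these 50 bases. FTH1 had no window.

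Detection was judged against a background limit for each array, the 95th percentile of signal over 76 measured genes. These genes were listed as restricted to other tissues, which was not checked gene by gene. Each was read from its brightest probe set. On the linear scale that the authors deposited, the limit stood at 197 in replicate 1, 187 in replicate 2 and 159 in replicate 3. The log2 distance of a probe set from its array's limit was tested with limma (one-sided, Benjamini-Hochberg adjusted over all 19065 probe sets, detection at an adjusted p under 0.05). By this rule 38.3% of all probe sets were detected, and in the same test on genes 1 of the 76 background genes was. The limit was set from these same 76 genes, so their low count was fixed in advance and is no error rate. The order of the probe set names was not the one deposited but an inferred one, and every value below depends on it. It was checked by the agreement between probe sets of the same gene, as described with the processing. Probe sets differ in their hybridisation, so a distance from the limit says whether a probe set was detected and does not rank genes by expression.

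Ferritin light chain, the transferrin receptor, the transporter SLC11A2, the regulatory protein ACO1 and the siderophore-binding LCN2 were all detected, haem oxygenase HMOX1 was not, and HFE stood close to background. Of the 24 probe sets, 11 were detected (limma adjusted p) against the 38.3% background, and 16 lay above the limit on all 3 arrays, where 41.1% of all probe sets did. HFE contributed 2 of its 13 probe sets to the 11, and the other 6 genes 9 of their 11. The median distance from the limit was 0.47 log2 units over the 24 probe sets and -0.26 over all probe sets. Taken as genes, each read from its brightest probe set, 6 of 7 were detected, where 43.8% of all genes were, and their median distance was 2.27 log2 units against 0.097 for all genes.

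**Figure D1:**
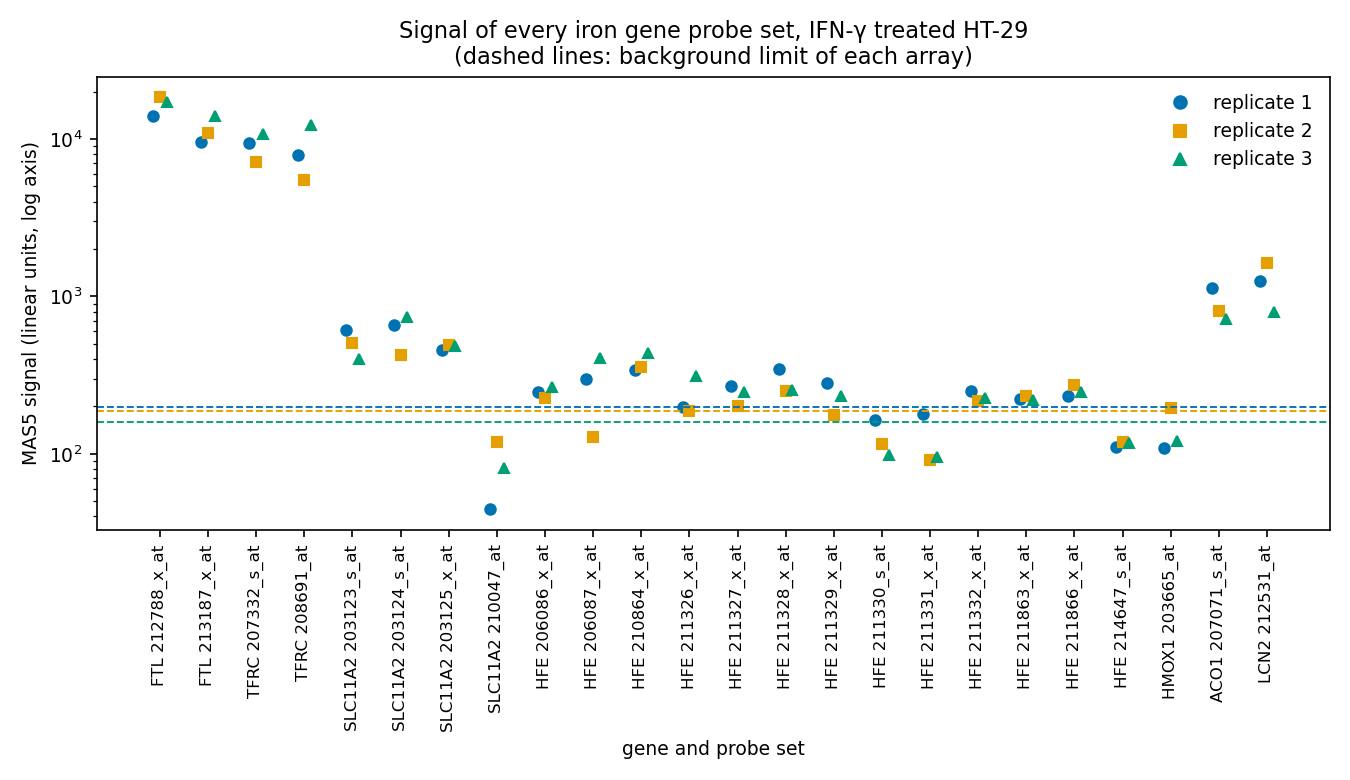
MAS5 signal (linear units on a log axis) of each of the 24 probe sets of the iron genes, with a symbol per replicate and dashed lines for the background limit of each array (197, 187 and 159 in replicates 1, 2 and 3). The FTL and TFRC probe sets lie far above all limits on every array, most HFE probe sets straddle or hug the limits, and HMOX1 exceeds its array's limit only in replicate 2.

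FTL, the ferritin light chain, which helps the iron core of the ferritin shell to form, was bright on every array. Probe set 212788_x_at read a signal of 14019, 18342 and 17085 in replicates 1, 2 and 3, and 213187_x_at read 9536, 10978 and 13998. Replicate 1 was the lowest on both probe sets, while the highest was replicate 2 on the first and replicate 3 on the second. The first lay 6.51 ± 0.28 log2 units over the limit and the second 5.98 ± 0.27 (SE, n = 3; limma adjusted p = 7.24e-09 for each). Here and below, the SE of a distance is the one moderated by limma, not that of the arrays alone. Both are named with the suffix _x_at, given to designs that cross-hybridise, so related transcripts, ferritin pseudogenes among them, can add to these signals.

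TFRC, the transferrin receptor and the main entry route for iron, was also far above the limit. Probe set 207332_s_at had a signal of 9355, 7148 and 10687 in replicates 1, 2 and 3, and 208691_at had 7883, 5444 and 12343. Both probe sets placed replicate 2 lowest and replicate 3 highest, and the highest array stood 1.49-fold over the lowest on the first and 2.27-fold on the second. The distance from the limit was 5.63 ± 0.25 log2 units for 207332_s_at (limma adjusted p = 7.24e-09) and 5.49 ± 0.29 for 208691_at (SE, n = 3; limma adjusted p = 1.35e-08). The second has neither that suffix nor _s_at, which is given to designs that match more than 1 transcript.

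SLC11A2 encodes DMT1, the divalent metal transporter that moves iron across the apical membrane of enterocytes and out of endosomes, and 3 of its 4 probe sets were detected. Probe set 203124_s_at read 653, 424 and 741 in replicates 1, 2 and 3, 203123_s_at read 610, 509 and 400, and 203125_x_at read 455, 487 and 483. These lay 1.71 ± 0.22, 1.47 ± 0.19 and 1.40 ± 0.19 log2 units over the limit (SE, n = 3), with limma adjusted p-values of 2.37e-05, 2.10e-05 and 3.88e-05. The 3 probe sets did not place the arrays in a common order, since replicate 3 was the highest on 203124_s_at and the lowest on 203123_s_at. The remaining probe set, 210047_at, was under the limit on all arrays with 44.4, 119 and 81.3, or -1.26 ± 0.39 log2 units (SE, n = 3). It is the only SLC11A2 probe set without a suffix, so the gene stood at -1.13 log2 units and was not detected when suffixed probe sets were left out. With a limit at the 99th percentile of the background genes, 203125_x_at did not pass (limma adjusted p = 0.0639).

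HFE, the class I-like protein that pairs with β2-microglobulin, binds the transferrin receptor and is mutated in hereditary haemochromatosis, hovered around the limit. Mean signals of its 13 probe sets ran from 116 to 378, and single values from 91.5 to 439. The mean lay over the limit for 10 of the 11 probe sets with the _x_at suffix and for 0 of the 2 with the _s_at suffix, and 7 of the 13 exceeded the limit on all 3 arrays. Those detected were 210864_x_at, with 339, 357 and 439 in replicates 1, 2 and 3 (1.06 ± 0.22 log2 units, SE, n = 3, limma adjusted p = 0.000795), and 211328_x_at, with 344, 249 and 254 (0.63 ± 0.22 log2 units, SE, n = 3, limma adjusted p = 0.0194). Their arrays did not run together, since replicate 1 was the lowest on the first and the highest on the second.

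Genes with some but not all probe sets detected made up 32.4% of the 4310 genes with several, and HFE and SLC11A2 were such genes among the 4 measured here with several. The HFE probe sets share a gene symbol, and whether they read the same transcripts was not examined. The gene's call rests on where the limit is put. The 3 lowest, 211330_s_at, 211331_x_at and 214647_s_at, were below the limit on every array, at -0.55, -0.63 and -0.64 log2 units. The widest spread was that of 206087_x_at, with 298, 128 and 404 in replicates 1, 2 and 3, and it passed once replicate 2 was left out (limma adjusted p = 0.00101). Without replicate 1, 211328_x_at did not pass (limma adjusted p = 0.19). With a limit at the 90th percentile, 19 of the 24 probe sets of the iron genes passed instead of 11, where 43.5% of all probe sets did, and the 8 added were all HFE probe sets. With a limit at the 99th percentile no HFE probe set passed (limma adjusted p = 0.474 for 210864_x_at, -0.083 log2 units for 211328_x_at), nor did the gene (0.34 log2 units, limma adjusted p = 0.391). Read as the median over its probe sets, with the limit computed likewise, HFE was detected (limma adjusted p = 0.0202).

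**Figure D2:**
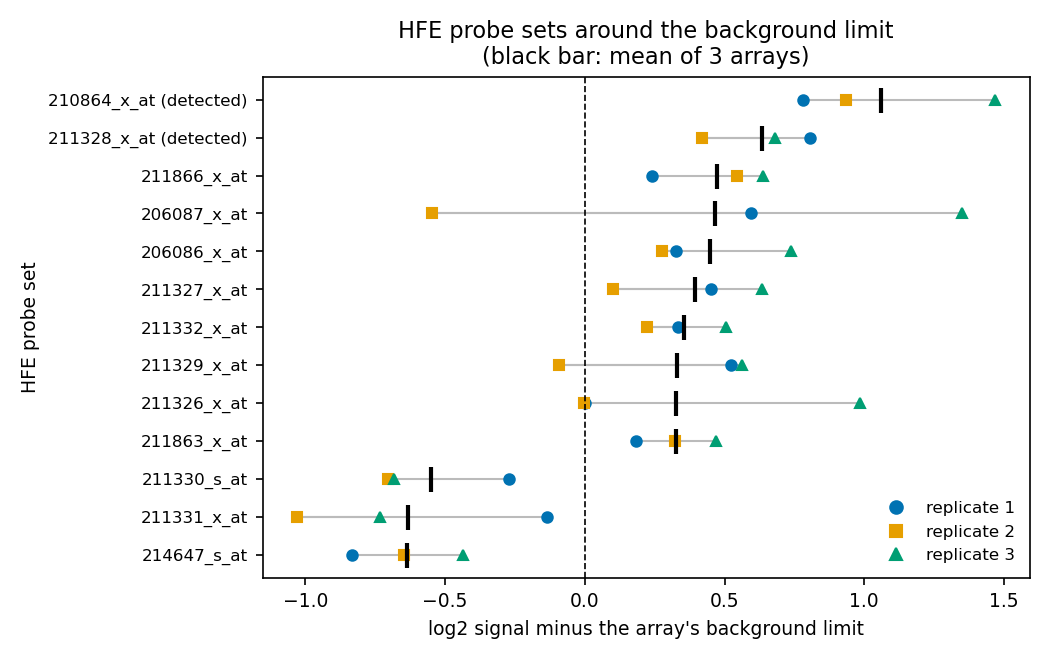
Log2 signal minus the background limit of the array for the 13 HFE probe sets, with a symbol per replicate, a black bar for the mean of the 3 arrays and the limit at 0. The means run from -0.64 to 1.06 log2 units, and the 2 detected probe sets are at the top.

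HMOX1, the inducible haem oxygenase that cleaves haem into biliverdin, carbon monoxide and iron, was not detected. Its single probe set, 203665_at, had a signal of 109, 194 and 120 in replicates 1, 2 and 3. Only replicate 2 exceeded the limit of its array, and the mean lay at -0.40 ± 0.29 log2 units (SE, n = 3; limma adjusted p = 1). A probe set under the limit can still have a transcript, and its level was not measurable here.

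ACO1, iron regulatory protein 1, which doubles as cytosolic aconitase when it carries an iron-sulphur cluster, was detected. Probe set 207071_s_at read 1127, 807 and 718 in replicates 1, 2 and 3, each well above the limit of its array. It lay 2.27 ± 0.18 log2 units over the limit (SE, n = 3; limma adjusted p = 3.85e-07), with replicate 1 the highest.

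LCN2, lipocalin 2, an epithelial defence protein that binds bacterial siderophores and so withholds iron from microbes, was detected by its only probe set. Probe set 212531_at, which carries no suffix, read 1244, 1634 and 797 in replicates 1, 2 and 3. The distance from the limit was 2.70 ± 0.20 log2 units (SE, n = 3; limma adjusted p = 1.90e-07). Replicate 2 was 2.05-fold over replicate 3, so the arrays differed more than for most detected probe sets, as given next. Neutrophils also store LCN2, and 0 of 8 neutrophil markers were detected (limma, none at an unadjusted p under 0.05 either), MPO at 78.6 ± 4.06 and LTF at 9.19 ± 2.52 (mean signal, SD, n = 3).

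The replicate spread of the detected iron genes was like that of detected probe sets in general. The SD of log2 signal over the 3 arrays had a median of 0.30 over the 11 detected probe sets and 0.29 over all 7305, whose quartiles were 0.19 and 0.43. TFRC 208691_at (SD 0.59) was at the 89.0th percentile of detected probe sets and LCN2 (SD 0.52) at the 84.4th, while SLC11A2 203125_x_at (SD 0.053) was at the 2.70th. TFRC and LCN2 ran opposite ways, with TFRC lowest in replicate 2 and LCN2 highest there, but 3 arrays give no basis for a correlation. The lowest array was replicate 1 for 4, replicate 2 for 4 and replicate 3 for 3 of the 11 probe sets, and over all detected probe sets it was replicate 1 for 19.7%, replicate 2 for 37.5% and replicate 3 for 42.8%. Without the suffixed probe sets, which leaves TFRC 208691_at and LCN2, the median SD was 0.56.

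**Figure D3:**
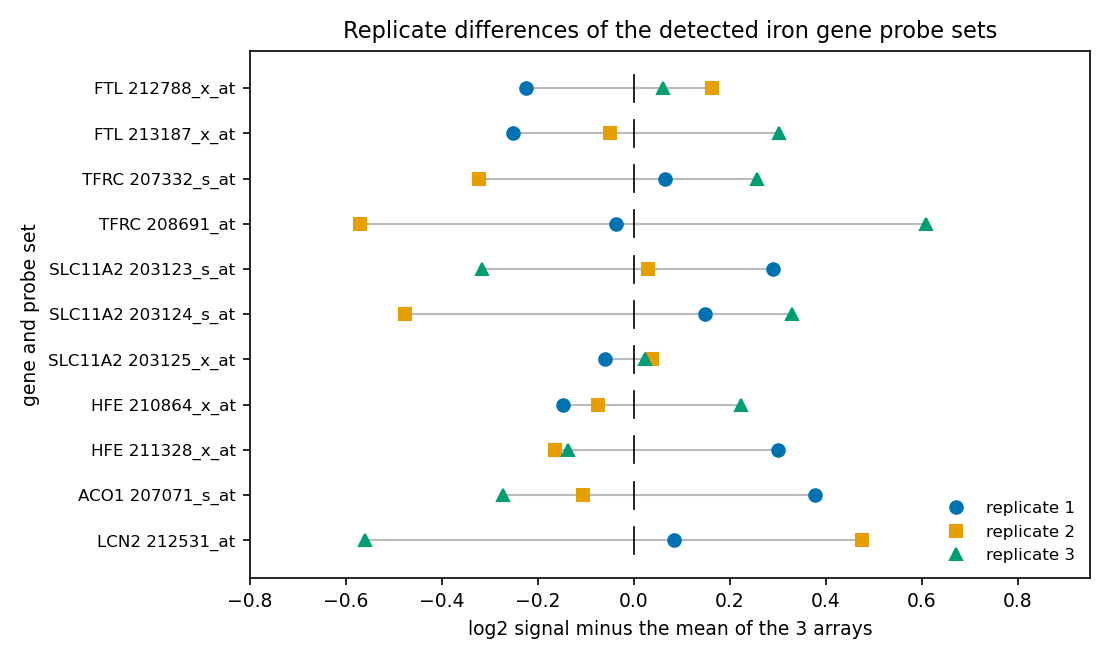
Log2 signal minus the mean of the 3 arrays for the 11 detected probe sets of the iron genes, with a symbol per replicate and a short line at 0. Both TFRC probe sets have replicate 2 lowest and replicate 3 highest, both FTL probe sets have replicate 1 lowest, and LCN2 has replicate 2 highest and replicate 3 lowest.

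Around these genes, 41 of 60 measured genes of wider iron and haem handling (68.3%) were detected, against 43.8% of all genes, each read from its brightest probe set. Their median distance from the limit was 1.32 log2 units, and 12 of the 60 had a mean under the limit. All 3 genes of ferritin iron handling and all 3 of iron regulatory protein control were detected, as were 9 of 10 of mitochondrial iron and iron-sulphur clusters and 8 of 9 of the NRF2 and BACH1 axis. Detection was partial for uptake (6 of 10), haem breakdown and transport (7 of 11) and haem synthesis (5 of 8), and 0 of 6 genes of iron export and the hepcidin axis passed by limma, with 0 at an unadjusted p under 0.05. Leaving out suffixed probe sets gave 24 detected genes of 40 measured, where 35.9% of all genes were detected.

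Genes that hand iron to ferritin and release it again were well above background. PCBP2, a poly(rC)-binding protein that also acts as an iron chaperone, had a mean signal of 5494 ± 1635, and NCOA4, the receptor that sends ferritin to lysosomes for breakdown, had 2740 ± 601 (SD, n = 3 each). The distance from the limit was 3.90 log2 units for NCOA4 (limma adjusted p = 2.61e-09). PCBP2 had 2 of 4 probe sets detected, and without suffixed ones it lay at 0.042 log2 units and was not detected. FBXL5, the iron-sensing ubiquitin ligase subunit that targets iron regulatory protein 2 for destruction, had 599 ± 119, and SKP1, a core part of that ligase, had 7365 ± 779 (SD, n = 3 each). FBXL5 was detected (1.71 log2 units, limma adjusted p = 4.94e-06) with 1 of 2 probe sets, and lay at 0.0081 log2 units without suffixed ones, where it was not detected.

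In the uptake group, B2M was detected and CYBRD1, TF and SLC22A17 were not. B2M, the light chain of HFE and of class I molecules, had a signal of 17527, 19196 and 33501 in replicates 1, 2 and 3 and exceeded the limit by 6.96 log2 units (limma adjusted p = 2.02e-09). Replicate 3 stood apart as the highest, and it was also the highest on both TFRC probe sets. The 100 brightest values of an array held 11.5%, 12.6% and 15.5% of its signal in replicates 1, 2 and 3. Among housekeeping genes, GAPDH had 19536, 21098 and 30616 in replicates 1, 2 and 3, and EEF1A1 had 21340, 24774 and 33578. ACTB and TUBB were highest in replicate 2 instead. Of all detected probe sets, 36.2% were highest in replicate 3. A height in replicate 3 was therefore not particular to B2M and TFRC, and its cause was not tested. CYBRD1, the duodenal ferric reductase of the enterocyte brush border, had 4.92 ± 0.56 (SD, n = 3), far under the limit on every array. TF, the plasma iron carrier made by the liver, had 35.1 ± 16.4, and SLC22A17, described as a receptor for LCN2, had 69.7 ± 25.5 (SD, n = 3 each).

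None of the 6 measured genes of export and of its hormonal control was detected, with a mean under the limit for 3 of the 6. The exporter SLC40A1 itself was not among them, as it had no probe set, so iron export was not measured at that step. HEPH (0.066 log2 units) and TMPRSS6 (0.038) had means just over the limit. HAMP, which encodes hepcidin, the liver hormone that degrades ferroportin, had 119, 102 and 150 in replicates 1, 2 and 3 and was not detected (-0.56 log2 units), and the order of the names was not borne out in its neighbourhood of the array list. The ferroxidase ceruloplasmin, CP, had 25.3, 9.38 and 67.6. BMPR2, a bone morphogenetic protein receptor upstream of hepcidin, was not detected with 216 ± 22.0 (SD, n = 3; 0.26 log2 units, limma adjusted p = 0.317), and it passed with the limit at the 90th percentile (limma adjusted p = 0.0147).

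On the haem side, the constitutive oxygenase was detected where HMOX1 was not. HMOX2 had 727, 1159 and 863 in replicates 1, 2 and 3, with both probe sets detected and a distance of 2.32 log2 units (limma adjusted p = 2.20e-07). The difference between HMOX1 and HMOX2 was not tested, because they are read by different probe sets. BLVRA, a biliverdin reductase that acts on the oxygenases' product, had 352 ± 40.2 (SD, n = 3) on an _x_at probe set and was detected (0.96 log2 units, limma adjusted p = 0.000957). It had 1 of 4 probe sets detected, and it stood at -1.35 log2 units with the median over them, at -5.06 without suffixed ones, and at an adjusted p of 0.6 with the limit at the 99th percentile. HEBP2, a member of the haem-binding protein family, had 3052 ± 402, and HP, the plasma haemoglobin scavenger haptoglobin, was not detected at 31.5 ± 36.8 (SD, n = 3 each).

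Haem and iron-sulphur clusters are the main products made from iron inside the cell, and most measured genes of both pathways were detected. UROD, a cytosolic enzyme of haem synthesis, had 794 ± 106 (SD, n = 3) and was detected (2.13 log2 units, limma adjusted p = 3.87e-07). ALAS2, the erythroid form of the first enzyme and the second transcript printed above, had 8.21, 12.3 and 14.8 in replicates 1, 2 and 3, so of the pair of transcripts with a 5′ iron-responsive element shown above FTL was detected and ALAS2 was not. ISCU, the scaffold on which iron-sulphur clusters are built, had 2518 ± 169 (SD, n = 3; 3.80 log2 units, limma adjusted p = 1.91e-09). SLC25A37, mitoferrin 1, which imports iron into mitochondria and is known from erythroid cells, had 154 ± 11.1 (SD, n = 3) and was not detected.

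NRF2 and BACH1 are opposing regulators of HMOX1 and ferritin genes, and both were detected. NFE2L2, which encodes NRF2, had 2444, 1532 and 3477 in replicates 1, 2 and 3 (3.71 log2 units, limma adjusted p = 2.54e-08). BACH1, the haem-sensing repressor, had 771, 621 and 658 (1.92 log2 units, limma adjusted p = 5.87e-07). TXNRD1, a thioredoxin reductase and NRF2 target, had 5357 ± 637, and MAFG, a small MAF partner of both factors, had 242 ± 9.21 (SD, n = 3 each). TXNRD1 was detected (4.89 log2 units), but displacing all names by the same number of rows reads another value for it, at -0.39 log2 units. MAFG was not detected (0.43 log2 units, limma adjusted p = 0.0957), and it passed with the limit at the 90th percentile (limma adjusted p = 0.00403) with the median over probe sets (limma adjusted p = 0.00868), with a limit over all probe sets of the background genes (limma adjusted p = 0.0233) and with all names displaced by the same number of rows (limma adjusted p = 0.0224).

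**Figure D4:**
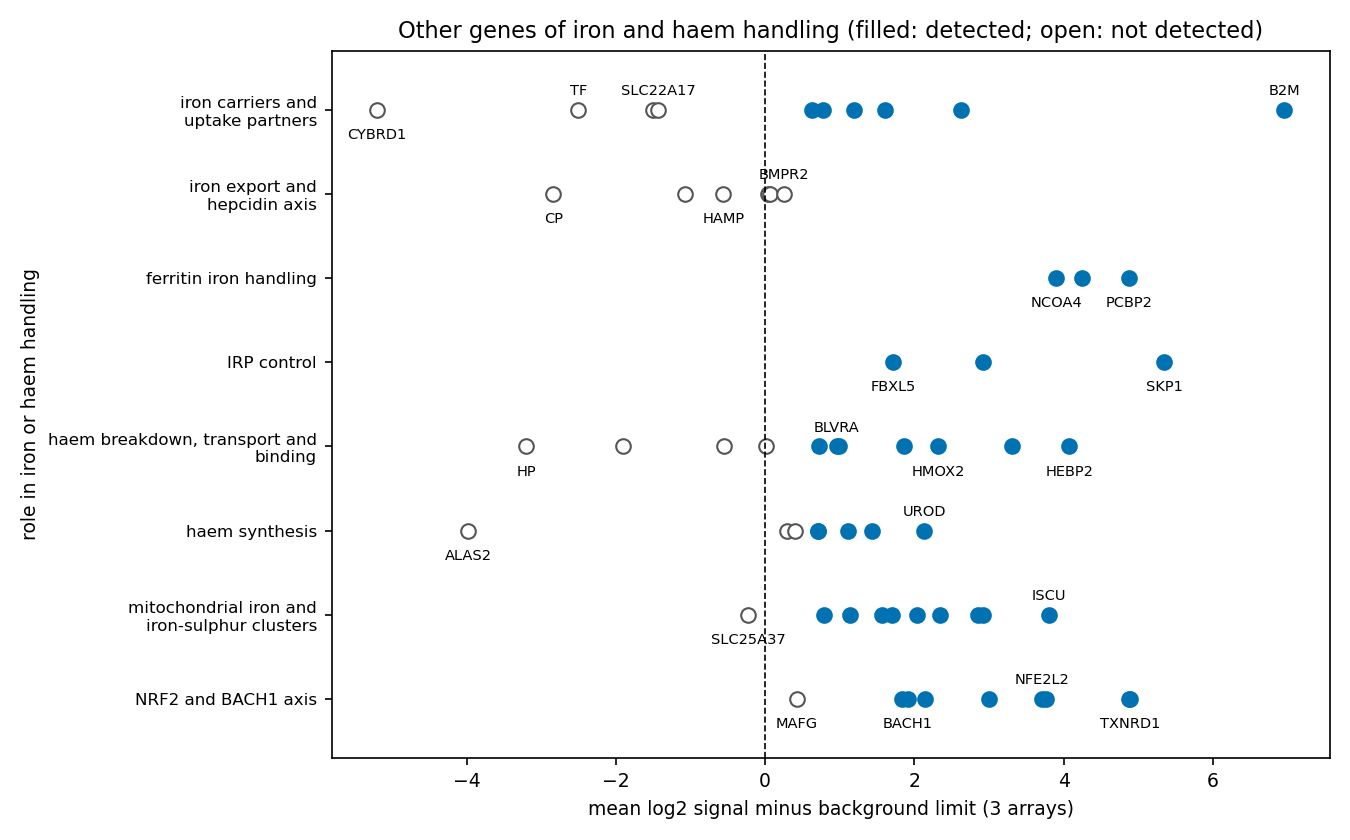
Mean log2 signal minus the background limit over 3 arrays for the 60 measured genes of wider iron and haem handling, by role, with filled circles for detected genes and open circles for genes not detected. All genes of ferritin iron handling and iron regulatory protein control are filled, and all 6 of iron export and the hepcidin axis are open.

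The labelled cell type was checked against marker lists. Epithelial markers were detected for 6 of 7 genes, EPCAM at 8942 ± 3370 (SD, n = 3), with CDH17, an intestinal cadherin, not detected at 14.3 ± 3.35 (SD, n = 3). Of cell types that handle iron in the body, 1 of 6 erythroid, 1 of 9 macrophage and monocyte and 1 of 8 hepatocyte markers were detected, which were RHAG at 298 ± 60.4, LYZ at 9260 ± 4444 and SERPINA1 at 3254 ± 897 (SD, n = 3 each). LYZ and SERPINA1 are also made by intestinal epithelium. RHAG passed at 0.71 log2 units (limma adjusted p = 0.00924), further from the limit than the detected HFE probe set 211328_x_at at 0.63. Calls this close to the limit therefore include an erythroid marker, and why it passed was not tested. All 5 measured interferon response genes and all 8 housekeeping genes were detected.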

How the data were processed

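Total RNA of 3 IFN-γ treated HT-29 cultures was hybridised to Affymetrix arrays. The authors deposited linear signal intensity per probe set, and the submitters' processing notes name MAS5 and Affymetrix Expression Console 1.1. No source used here gives the scaling target, background step or presence calls. Without the highest and lowest 2% of values each array averaged 500.3, and medians were 137, 144 and 141 in replicates 1, 2 and 3. Precision is limited by having 3 arrays.

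Values were present for 22277 of 22283 probe sets. Probe sets with 1 symbol in the platform annotation numbered 19071, those with several 1043, and 2163 were unlisted. The names looked displaced. The first and second probe set of a gene correlated with r = 0.19 as deposited and r = 0.60 over 4310 genes when the values were read as 15 unnamed ones, the 100 probe sets numbered 200000 to 200099, 493 with lower numbers and 21622 others in file order. The 62 control values could not be assigned, and 19065 single-symbol probe sets remained. A uniform displacement of all names by 487 rows gave r = 0.50. The next larger displacement was also tried but was left out of the comparison. The highest of the 214 others tried gave r = 0.24. All 24 probe sets of the iron genes moved by 487 rows. In a local check, neighbours within 300 rows of each were set against probe sets of their own genes elsewhere. The order used gave a higher r (0.49 to 0.67) than any of 20 offsets around it for 24 of 24. These 24 are not separate checks, because probe sets close together in the list share most of their neighbours. HFE 206086_x_at and 206087_x_at, for example, gave the same r (0.56) over 183 neighbours. The order used also gave the highest r for 22 of 23 further named genes, where r ran from 0.28 (SLC25A37) to 0.67 (ALAS2). The best other offset gave 0.16 for SLC25A37 and 0.15 for ALAS2. For HMOX2 r was 0.32 against 0.19, and for SKP1 0.48 against 0.38, so some of these genes are placed less clearly than others. The exception was HAMP (r = 0.088, and 0.17 at another offset), so the order is not borne out there. Wider genes that are not named were not checked this way. Both checks use the agreement between probe sets of a gene in these same values, so neither is independent support for the order.

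Log2 signal (no pseudocount) minus the limit was tested against 0 in limma 3.58.1 under R 4.3.3 (eBayes with a variance trend), and the limit was treated as known. The p-values and the SE of each distance from the limit use the variance that eBayes moderates. That variance combines the spread between these cultures with a trend fitted over all probe sets or genes tested. Neither the SE nor the p-value therefore measures the spread between these cultures alone. The members and lists were chosen with earlier results of these data known. Named genes are the members, the gene with the highest and the gene with the lowest distance from the limit in each role group, and 11 fixed partners. This rule only chose which genes to describe and does not rank their expression. Alternatives changed the order of names, limit, normalization, pseudocount, filter, suffixed probe sets, variance trend, gene summary and replicates.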

Additional observations from a re-analysis of the deposited data

How the results depend on the processing

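When a replicate was left out, 10 to 12 probe sets of the iron genes were detected, against 35.8% to 37.8% of all probe sets. Detected iron genes numbered 6 each time and wider iron and haem genes 38 to 41, against 41.4% to 43.4% of all genes. Quantile normalization, a pseudocount of 16 and a fit without a variance trend changed the call of 0 of 54 named probe sets and genes. A limit at the 90th percentile gave 19 detected probe sets instead of 11 (43.5% of all probe sets). Leaving out suffixed probe sets gave 2 of 4 probe sets, 2 of 4 genes and 24 of 40 wider genes, where fewer are measured and 32.3% of all probe sets and 35.9% of all genes were detected, a median SD of 0.56 instead of 0.30, SLC11A2 at -1.13 and BLVRA at -5.06 log2 units. BLVRA stood at -1.35 with the median over probe sets, and the HFE probe set 211328_x_at at -0.083 with the limit at the 99th percentile; the cause was not tested. A limit over all probe sets of the background genes, chosen after seeing the data, gave 14 detected probe sets and 6 genes. With that limit 40.2% of all probe sets and 45.9% of all genes were detected.

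The order of the names decides every gene value. As deposited, r between probe sets of a gene was 0.19 and with a uniform displacement 0.50, against 0.60. As deposited, 0 probe sets, 0 iron genes and 1 wider gene passed by limma (0 iron genes and probe sets also at an unadjusted p under 0.05), where 2.16% of all probe sets and 3.64% of all genes did, with a limit that then lay at a signal of 3702, 3473 and 2889 in replicates 1, 2 and 3. The log2 distances were then -2.25 for FTL (-2.73 and -2.25 for its probe sets), -5.89 for TFRC (-8.46 and -5.89), -1.02 for SLC11A2 (-1.03, -2.28 and -1.02), -2.22 for HFE (-5.35 and -8.53), -6.91 for ACO1 and -0.30 for LCN2. They were -2.10 for B2M, -2.48 for BACH1, -1.67 for BLVRA, -6.37 for FBXL5, -5.37 for HMOX2, -7.24 for ISCU, -7.51 for NCOA4, -0.51 for PCBP2, -2.48 for SKP1 and -7.46 for UROD. TXNRD1 stood at -0.39 under the uniform displacement, which reads another row for it. NFE2L2 (3.75 log2 units) and SKP1 (6.97) were also read from other rows there, and both stayed detected. That displacement gave 15 detected probe sets and 6 iron genes, where 40.1% of all probe sets and 45.25% of all genes were detected. No paired analysis was possible because the 3 arrays form a single group.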
